A study of Bos taurus with 24 samples.

Results

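Immature bovine oocytes collected in summer were compared with those collected in spring. An oocyte at the germinal vesicle stage (GV) is still arrested in meiosis, with its nucleus intact, as it is found in the follicle before ovulation. The comparison took the 12 GV samples of the 24 samples in the study, 6 from May (spring) and 6 from July (summer). All genes over 0.1 FPKM (fragments per kilobase, scaled to the mapped fragments of the sample, a level corrected for gene length and depth) in at least 1 of the 12 samples were used, which left 9309 of the 11306 genes listed.

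The donors were non-lactating, non-pregnant, Angus-based crossbred Bos taurus beef cows aged 3 to 6 years, and both seasons had the same management. Season of collection was the only difference between the groups that the labels give. Oocytes came from live cows by ovum pick-up, in which follicles are aspirated through a needle, and the surrounding cumulus cells were removed with hyaluronidase and vortexing. Each sample was a pool of 4 oocytes from 1 animal, whereas the labels speak of individual cells. The 12 other samples were matured in vitro for 24 h to metaphase II (MII), the stage ready for fertilization, and serve here only to ask whether a seasonal difference at GV was also seen after maturation. Each season was 1 month of collection, so season and any other property of that month cannot be told apart. The herd held 10 cows and was sampled in both seasons, so some animals must have given more than 1 of the 12 samples. The labels number the replicates without tying them to animals, the fit treats the samples as independent, and the p-values measure the spread between these samples.

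The GV oocyte has finished most of its growth. During growth it accumulates messenger RNA, ribosomes and mitochondria that serve meiosis and the first divisions of the embryo, and it secretes the zona pellucida, the glycoprotein coat to which sperm bind. Transcription becomes largely silent as the oocyte reaches full size, so its later messenger RNA levels are set mostly by storage, polyadenylation and decay. The oocyte also signals to the cumulus cells through growth factors such as GDF9 and BMP15, and it depends on their metabolites in return. Heat stress in cattle is known to lower oocyte quality, and heat shock proteins, antioxidant enzymes and mitochondria are the classes usually examined for its traces.

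The 12 samples were not equally deep. The deposited values of each sample sum to the same total, between 86768.1 and 86768.2, so depth was judged from the size of the smallest steps between values. Relative to spring replicate 1, depth was 0.0565 in spring replicate 6, 0.393 in summer replicate 2, 2.19 in summer replicate 3 and 6.51 in summer replicate 5, and it lay between 0.609 and 1.06 in the others. Spring replicate 6 and summer replicate 2 also stood apart in their values, with a median correlation to the other GV samples of 0.689 and 0.734, against at least 0.889 for each of the others. They are the GV samples with the lowest share of mapped reads in the study's supplementary table. All results below use the 12 samples unless stated, and some named genes are also given without these 2, by a rule stated below.

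Oocyte markers were abundant in each sample. The 12 oocyte markers, among them ZP2, GDF9 and OOEP, summed to between 531 and 1272 FPKM in spring and between 961 and 2013 in summer, the highest in summer replicate 2. The 35 cumulus and granulosa cell markers tested summed to 606 FPKM in spring replicate 6 and 283 in spring replicate 3, against 50.6 to 76.9 in the other spring samples and 51.9 to 139 in summer. In spring replicate 6 the keratin gene KRT18 alone gave 392.4 FPKM of this sum. The mean log2 level of the markers was higher in spring replicate 3 (1.82) than in spring replicate 6 (1.27). Of the 42 such markers listed, AREG, CD44, COL1A1, COL4A1, CYP19A1, FSHR and TIMP2 were at or below 0.1 FPKM in all 12 samples. Of the 35 markers 29 were lower in summer, their median log2 difference between seasons was -0.16 (-0.07 without the 2 low-mapping samples), and for none of them did p fall under 0.05 before adjustment. The 18 blood and immune cell markers were evenly split, 9 higher and 9 lower in summer. In pooled samples fewer cells of a type and less RNA per cell cannot be told apart.

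**Figure D1:**
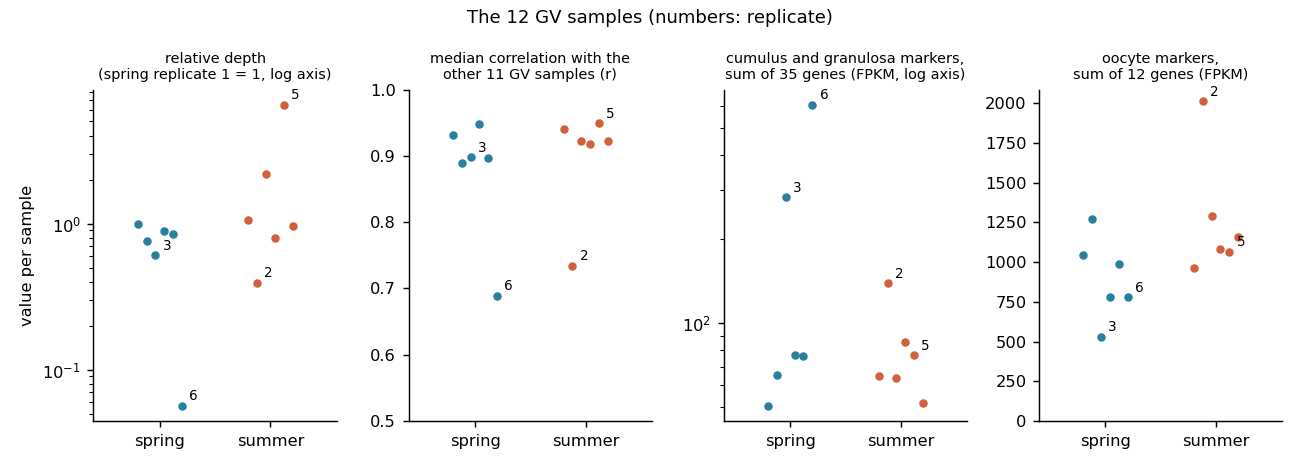
Each point is 1 of the 12 GV samples, spring in blue and summer in orange, with the replicate number beside the samples named in the text. From left to right the panels show depth relative to spring replicate 1 (log axis), the median correlation with the other GV samples (axis from 0.5), the summed FPKM of the cumulus and granulosa markers (log axis) and of the oocyte markers. Spring replicate 6 had the lowest depth (0.0565), the lowest correlation (0.689) and the highest cumulus and granulosa sum (606 FPKM, of which KRT18 gave 392.4).

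Few genes had an unadjusted p under 0.05 for season in GV oocytes, which does not show that the others stayed the same. Nearly all of those with the lowest p differed by less than 2-fold on the scale of FPKM + 1, on which differences were tested. The zona gene ZP2, the oocyte gene NLRP9, the lipid droplet gene HILPDA and the membrane protein genes TMEM208 and TMBIM6 were higher in summer oocytes. The iron storage gene FTH1, the transcription cofactor gene DRAP1 and the autophagy gene GABARAP were lower. None of these differences held after correction for the 9309 genes tested.

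Differences are given as log2 of FPKM + 1, summer minus spring, with a standard error (SE) and the unadjusted p of limma, a linear model that shares information on variance across genes. The exact p for a single gene is that of a permutation test over all ways of splitting the 12 samples 6 against 6, and its smallest possible two-sided value is 0.00216, or 0.00794 for 5 against 5. With the thresholds the study used, an unadjusted p under 0.05 and a fold over 2, 3 of the 9309 genes were called, or 0.0322%. This count depends on how the fold is taken, since adding 1 compresses it for low genes: 39 genes were called with a pseudocount of 0.1, 54 with the ratio of the group means and 110 with no pseudocount. RNF148 was higher in summer, and C15H11orf96 and a MAPRE2 entry on chromosome 2 were lower. With limma and Benjamini-Hochberg adjustment 0 genes passed, and the smallest adjusted p was 0.999.

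Without the fold threshold 134 genes had an unadjusted p under 0.05, which is 1.44% of the genes tested and below the 5% that such a threshold passes when nothing differs. Of these 101 were higher in summer (1.08% of all genes tested) and 33 lower (0.354%). The split of these genes depended on scaling: 75.4% were higher in the values as deposited, and 44.8% after median-of-ratios scaling, which gave 77 higher and 95 lower. In 17 genes, or 0.183%, the 6 summer values lay entirely outside the range of the 6 spring values, 13 above and 4 below. Such a separation gives a single gene the smallest possible exact p, stated above. That p is also the share of genes expected to separate when nothing differs, and 0.183% lies below it. A lack of overlap in a gene named below therefore does not by itself set that gene apart from chance. The median difference over all genes was 0.01, with the middle 50% of genes between -0.07 and 0.11.

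**Figure D2:**
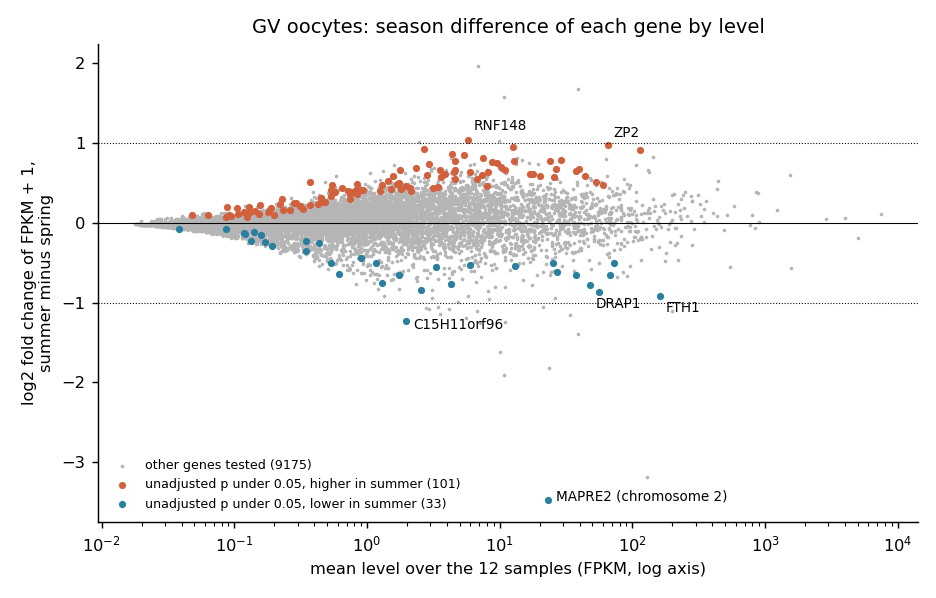
Each point is 1 of the 9309 genes tested, placed by its mean FPKM over the 12 GV samples (log axis) and by its log2 difference in FPKM + 1, summer minus spring. Orange marks the 101 genes with an unadjusted p under 0.05 that were higher in summer and blue the 33 that were lower, and the dotted lines mark a 2-fold difference, which 3 of the marked genes exceeded.

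Single samples stood at the extremes of many of these genes. Of the 101 genes higher in summer, 74 (73.3%) had their highest value in summer replicate 2, and 39 (38.6%) had their lowest in spring replicate 6. Over all genes tested these shares were 31.8% and 21.3%. The 101 genes were chosen for high summer values and none peaked in spring, so the shares of all genes are not an equal baseline. Over all genes no other summer sample was highest in more than 3.18%. Of the 33 lower genes, 13 (39.4%) had their highest value in spring replicate 3 and 12 (36.4%) in spring replicate 6, the samples with the highest cumulus and granulosa sums. Over all genes tested these shares were 8.64% and 27.3%, and the 33 genes were likewise chosen for high spring values. Without the 2 low-mapping samples 84 of the 134 genes still had an unadjusted p under 0.05 and 50 did not. For the genes with p under 0.05 named below, the value without them or the loss of that p is given where the call ended or the difference moved by over 1.5 times. For the other genes named below it is given only in some cases.

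ZP2 encodes a structural protein of the zona pellucida. Its level ran from 26.8 to 66.7 FPKM in spring with a median of 43.3, and from 59.6 to 115 in summer with a median of 83.0. The log2 difference was 0.98 (SE 0.28, limma p = 0.00353, exact p = 0.00433). The groups overlapped only where the highest spring samples met the lowest summer ones. Without the 2 low-mapping samples the difference was 0.96 (limma p = 0.0049, exact p = 0.0159).

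NLRP9 belongs to a family of NLR genes of which several are expressed mainly in oocytes and early embryos. It measured 2.66 to 4.48 FPKM in spring (median 3.26) and 4.62 to 10.6 in summer (median 6.91). The groups did not overlap, and the log2 difference was 0.85 (SE 0.22, limma p = 0.0021, exact p = 0.00216).

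HILPDA encodes a lipid droplet protein that restrains the breakdown of stored triglycerides and is induced by low oxygen. Spring samples held 1.66 to 4.01 FPKM (median 2.71) and summer samples 4.19 to 7.86 (median 5.48). Every summer value lay above every spring value. It had the lowest p of the genes named here, with a log2 difference of 0.86 (SE 0.22, limma p = 0.0015, exact p = 0.00216).

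TMEM208 and TMBIM6 encode membrane proteins of the endoplasmic reticulum, the first linked to protein insertion and the second to calcium release and protection from cell death. TMEM208 measured 4.18 to 7.91 FPKM in spring (median 6.58) and 9.54 to 13.8 in summer (median 10.9), without overlap. Its log2 difference was 0.76 (SE 0.21, limma p = 0.00283, exact p = 0.00216). TMBIM6 measured 1.98 to 4.67 FPKM in spring (median 2.78) and 4.51 to 12.2 in summer (median close to 5), for a difference of 0.77 (SE 0.26, limma p = 0.00939, exact p = 0.00649). Its highest value, in summer replicate 2, stood well above the other summer samples, which lay close together.

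DNTTIP2 and MPHOSPH10 encode nucleolar proteins, and MPHOSPH10 is part of the complex that processes the precursor of ribosomal RNA. DNTTIP2 ranged from 3.30 to 5.21 FPKM in spring (median 4.80) and from 5.75 to 9.39 in summer (median 7.58), a difference of 0.64 (SE 0.19, limma p = 0.00454, exact p = 0.00216). MPHOSPH10 was weakly expressed, at 0.746 to 1.41 FPKM in spring (median 0.954) and 1.44 to 2.44 in summer (median 1.86), a difference of 0.53 (SE 0.16, limma p = 0.00503, exact p = 0.00216). Neither gene's groups overlapped.

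RNF148, a ring finger gene of the kind that encodes ubiquitin ligases, was the only called gene that was higher in summer. It measured 1.73 to 4.24 FPKM in spring (median 3.09) and 3.35 to 21.8 in summer (median 6.67). The log2 difference was 1.04 (SE 0.35, limma p = 0.0105, exact p = 0.0108), and the groups overlapped at their edges. Without the 2 low-mapping samples it was 0.73 (limma p = 0.0155, exact p = 0.0397), so the fold then stood under 2.

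The enzyme genes ATP5A1, ADH5 and PRDX1 and the histone co-chaperone gene DNAJC9 were also higher. ATP5A1 encodes the alpha subunit of the mitochondrial ATP synthase and measured 7.17 to 10.7 FPKM in spring (median 7.53) and 10.4 to 20.7 in summer (median 12.1), a difference of 0.66 (SE 0.22, limma p = 0.00953, exact p = 0.00433). ADH5, which detoxifies formaldehyde and reduces nitrosoglutathione, measured 2.65 to 5.07 FPKM in spring and 4.64 to 7.02 in summer (0.55, SE 0.19, limma p = 0.012, exact p = 0.00649). DNAJC9 measured 1.45 to 4.34 FPKM in spring and 3.55 to 4.85 in summer (0.66, SE 0.23, limma p = 0.0121, exact p = 0.00433). PRDX1, a peroxidase of the peroxiredoxin family, was more abundant, with 25.5 to 51.7 FPKM in spring (median 31.4) and 41.3 to 63.9 in summer (median 52.8), and its difference was 0.58 (SE 0.24, limma p = 0.0316, exact p = 0.026). The summer samples of these 4 genes were mostly above the spring samples, with overlap in each.

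One further gene in this direction, BCNT2, did not overlap between seasons, with 0.904 to 1.58 FPKM in spring and 1.66 to 3.29 in summer (0.49, SE 0.17, limma p = 0.0142, exact p = 0.00216). The highest level among the 101 higher genes with p under 0.05 belonged to BCAR4, known in cattle as an oocyte-expressed gene and singled out after its values were seen. It measured 32.4 to 141 FPKM in spring (median 87.1) and 105.5 to 175.8 in summer (median 152.4), a difference of 0.91 (SE 0.33, limma p = 0.0165, exact p = 0.013).

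Among the genes lower in summer FTH1 was the most abundant. It encodes the heavy chain of ferritin, which stores iron and oxidizes it to its less reactive form. Spring samples ranged from 92.8 to 410 FPKM with a median of 205, and summer samples from 66.0 to 182 with a median of 101. The log2 difference was -0.92 (SE 0.36, limma p = 0.0242, exact p = 0.039), and without the 2 low-mapping samples it was -0.62 (limma p = 0.0979, exact p = 0.143). Of the 6 spring samples 5 lay above the summer median, and the ranges overlapped widely.

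DRAP1, a corepressor that binds the TATA-binding protein complex and limits transcription initiation, measured 42.1 to 82.4 FPKM in spring (median 59.5) and 24.9 to 59.2 in summer (median 31.5). Its difference was -0.78 (SE 0.26, limma p = 0.0107, exact p = 0.0152). GABARAP, an ATG8 family protein of the autophagosome membrane, measured 26.3 to 42.9 FPKM in spring (median 31.6) and 17.6 to 30.8 in summer (median 19.7), a difference of -0.62 (SE 0.22, limma p = 0.0124, exact p = 0.00649). In GABARAP a single summer sample, replicate 3, reached the spring range.

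PAIP2 encodes a repressor of translation that binds the poly(A)-binding protein. Its spring values were 4.98 to 9.13 FPKM (median 7.30) and its summer values 3.74 to 5.70 (median 4.66), a difference of -0.53 (SE 0.20, limma p = 0.0179, exact p = 0.00649). The mitochondrial ribosomal protein gene MRPL11 measured 24.5 to 37.8 FPKM in spring (median 28.3) and 17.8 to 24.5 in summer (median 19.98), a difference of -0.51 (SE 0.20, limma p = 0.0226, exact p = 0.00433). Their groups met only at the edges.

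Of the 4 lower genes whose groups did not overlap, SMDT1 and GNG5 had a mean above 1 FPKM, and the other two, ATP8B2 and FUK, were near the detection limit. SMDT1 encodes a small subunit that the mitochondrial calcium uniporter needs to work, and it measured 0.976 to 3.30 FPKM in spring (median 1.28) and 0.540 to 0.841 in summer (median 0.769). Its difference was -0.50 (SE 0.19, limma p = 0.0217, exact p = 0.00216). GNG5, a gamma subunit of heterotrimeric G proteins, measured 11.9 to 20.1 FPKM in spring (median 15.3) and 6.46 to 11.7 in summer (median 11.4), a difference of -0.54 (SE 0.22, limma p = 0.0258, exact p = 0.00216).

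C15H11orf96, MAPRE2 and GPR62 were lower with a wide scatter. C15H11orf96, an open reading frame with no assigned function, ran from 0.150 to 6.17 FPKM in spring (median 3.31) and from 0.01, the lowest value in the table, to 1.30 in summer (median 0.525). Its log2 difference was -1.23 (SE 0.43, limma p = 0.0127, exact p = 0.026), and -0.97 without the 2 low-mapping samples (limma p = 0.066, exact p = 0.0952). GPR62, an orphan receptor, measured 0.419 to 3.11 FPKM in spring and 0.126 to 1.07 in summer (-0.76, SE 0.29, limma p = 0.0198, exact p = 0.0368), and its difference was -0.59 without those samples (limma p = 0.0799, exact p = 0.135).

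MAPRE2, a microtubule end-binding protein, is listed at 2 loci. The entry on chromosome 2 (UMD3.1 chr2:21117911-21119284) was at 0.01 in 5 of the 6 summer samples and 56.1 FPKM in the other, while spring samples ran from 0.01 to 88.2 FPKM (median 32.7). Its difference was -3.48 (SE 1.16, limma p = 0.01, exact p = 0.0671). The entry on chromosome 24 differed in the other direction, by 0.52 (limma p = 0.0171, exact p = 0.0671). With both low-mapping samples left out the differences were -2.88 (limma p = 0.0556, exact p = 0.206) and 0.36 (limma p = 0.061, exact p = 0.206). Whether the counting divided reads between these loci was not tested.

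**Figure D3:**
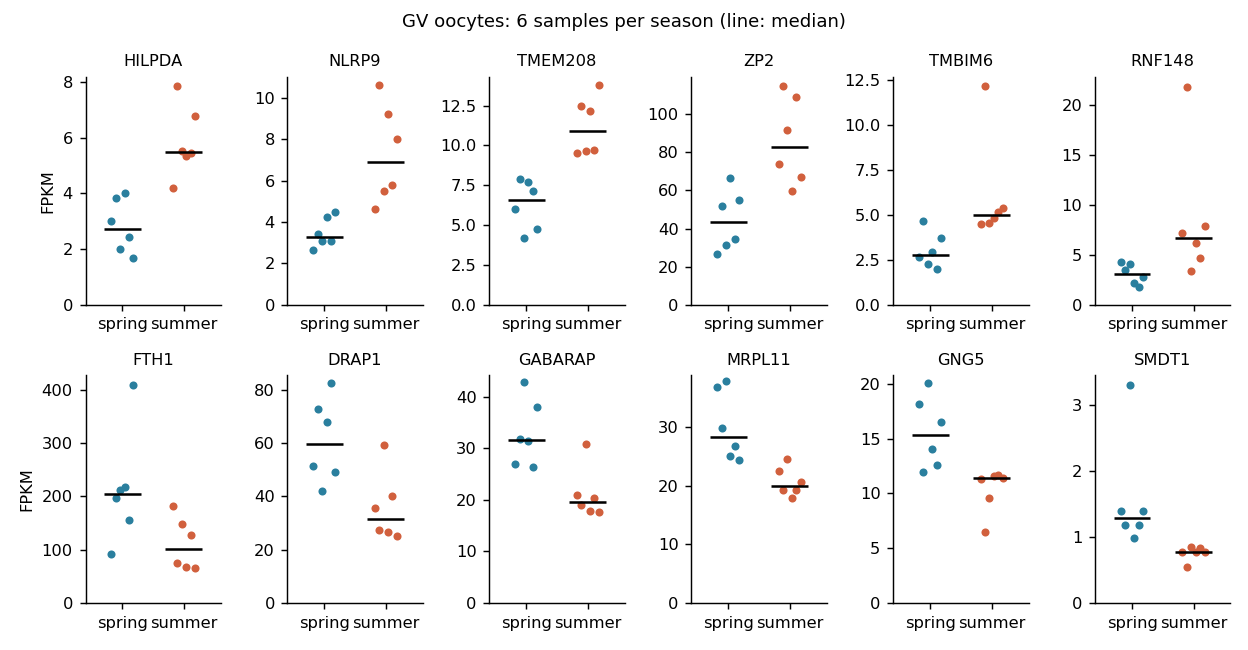
FPKM of 12 genes in each GV sample, with spring in blue, summer in orange and a line at each median. In the upper row HILPDA, NLRP9 and TMEM208 were higher in each summer sample than in any spring sample, and in the lower row GNG5 and SMDT1 were lower in each summer sample, while the other genes overlapped.

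The 35 gene lists, chosen by function with earlier results of these data known, covered 1920 of the genes tested. Of these 43 had an unadjusted p under 0.05, or 2.24%, against 91 of the 7389 genes in no list, or 1.232%. The median difference was above 0 in 29 of the 35 lists. After median-of-ratios scaling 18 of the list medians changed sign, after quantile normalization 4 did, and without the 2 low-mapping samples 7 did. For 11 lists the median was above 0 under all 3 scalings. These were oocyte-secreted factors and zona proteins, maternal effect genes, regulators of stored mRNA, meiotic arrest and resumption genes, co-chaperones and mitophagy. They also included DNA methylation, histone modifiers, DNA repair, spindle genes and nuclear pore genes. With median-of-ratios scaling some of these medians were barely above 0, at 0.003 for meiotic genes, 0.007 for spindle genes and 0.008 for mitophagy. The largest was 0.23, for oocyte-secreted factors and zona proteins.

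Oocyte-secreted factors and zona proteins had the highest median, 0.36, against 0.01 for all genes. Their median was 0.23 with median-of-ratios scaling and 0.21 without the 2 low-mapping samples. Of the 12 tested, 8 were higher in summer and 4 lower, and only ZP2 had an unadjusted p under 0.05, against 1.44% of all genes. ZP4 measured 26.3 to 76.7 FPKM in spring (median 37.1) and 46.4 to 198 in summer (median 61.9), a difference of 0.80 (SE 0.37, limma p = 0.0513, exact p = 0.0584). GDF9, the oocyte growth factor that drives cumulus expansion, measured 48.7 to 261 FPKM in spring (median 85.9) and 89.7 to 379 in summer (median 125), a difference of 0.63 (SE 0.42, limma p = 0.157, exact p = 0.21).

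In GDF9 the top value of each season was a low-mapping sample. Without both, the spring samples ran from 48.7 to 90.5 FPKM and the summer samples from 89.7 to 147.9, and the difference was 0.65 (limma p = 0.0133, exact p = 0.0238). ZP4 was then 0.69 (limma p = 0.0136, exact p = 0.0238). BMP15, the partner of GDF9, differed by 0.46 (SE 0.42, limma p = 0.294, exact p = 0.318) over all 12 samples, and the linker histone gene H1FOO by -0.11 (SE 0.64, limma p = 0.87, exact p = 0.883).

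The counts of the lists stand beside 54.9% of all genes tested higher in summer and 1.44% with p under 0.05. Maternal effect genes, whose proteins are made in the oocyte and needed by the embryo, were higher in 12 of 17, with a median of 0.13 and 1 member, NLRP9, with p under 0.05. Among 32 regulators of stored mRNA 24 were higher and 8 lower, and PAIP2, a lower gene, was the only one with p under 0.05. YBX2, a germ cell RNA-binding protein, measured 6.29 to 9.97 FPKM in spring and 4.87 to 94.8 in summer (0.74, SE 0.56, limma p = 0.207, exact p = 0.277), and its top value stood far above the other samples. Meiotic arrest and resumption genes were higher in 33 of 47 (median 0.07), none with p under 0.05. The cell cycle phosphatase CDC25C, which activates the kinase of M phase, measured 2.63 to 4.39 FPKM in spring and 4.09 to 7.33 in summer (0.29, SE 0.20, limma p = 0.162, exact p = 0.0823).

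Of 93 spindle, kinesin, dynein and tubulin genes, 6 were higher and 1 lower with p under 0.05, against 1.08% and 0.354% of all genes. The higher ones included CENPF, a kinetochore protein that measured 2.51 to 12.3 FPKM in spring (median 3.99) and 6.35 to 18.7 in summer (median 7.93), a difference of 0.81 (SE 0.34, limma p = 0.034, exact p = 0.0454). KIF20A, a kinesin of the central spindle, differed by 0.59 (limma p = 0.0389, exact p = 0.0346), and TPX2, which nucleates spindle microtubules, by 0.44 (limma p = 0.0422, exact p = 0.0281). The other higher members were the kinesins KIF4A and KIF23 and the MAPRE2 entry on chromosome 24, and the lower member was the MAPRE2 entry on chromosome 2. With both low-mapping samples left out KIF20A was 0.29 (limma p = 0.119, exact p = 0.127), and KIF23 and both MAPRE2 entries also no longer had p under 0.05. The list median was 0.06, and 63 of the 93 genes were higher.

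Nuclear pore and transport genes were higher in 40 of 51, with a median of 0.09 and 2 members with p under 0.05. KPNA2, an importin that carries proteins into the nucleus, measured 17.3 to 46.3 FPKM in spring (median 26.9) and 38.5 to 49.8 in summer (median 46.0), a difference of 0.64 (SE 0.25, limma p = 0.0225, exact p = 0.0195). KPNA1, its relative, did not overlap between seasons but was near the detection limit, at 0.0597 to 0.102 FPKM in spring and 0.119 to 0.411 in summer, and its difference was 0.13, or 0.07 without the low-mapping samples. DNA repair and replication genes were higher in 78 of 105 (median 0.07), and APEX1, BRCA1 and MSH5 had p under 0.05. APEX1, the main nuclease at abasic sites, measured 8.60 to 25.3 FPKM in spring and 17.5 to 33.9 in summer (0.61, SE 0.28, limma p = 0.0477, exact p = 0.0433). Without the 2 low-mapping samples it was 0.36 (limma p = 0.158, exact p = 0.159), and MSH5 also no longer had p under 0.05. BRCA1 and MSH5, which act in recombination, were at or below 1.35 FPKM in every sample.

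Ribosomal protein genes had medians close to 0. Of 82 cytosolic ribosomal protein genes 52 were higher and 30 lower, with a median of 0.05 that turned to -0.09 with median-of-ratios scaling. RPL6, RPL19 and RPL7L1 had p under 0.05. RPL19 measured 38.1 to 52.4 FPKM in spring (median 42.1) and 51.1 to 86.2 in summer (median 56.7), a difference of 0.51 (limma p = 0.0299, exact p = 0.00649), and RPL7L1, a paralog of a ribosomal protein, 10.49 to 21.3 in spring and 17.6 to 25.1 in summer (0.60, SE 0.21, limma p = 0.0142, exact p = 0.0108). Of 81 mitochondrial ribosomal protein genes 49 were higher, and MRPL11, a lower gene, was the only member with p under 0.05, while the median of 0.05 turned to -0.07 with median-of-ratios scaling.

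Respiratory chain genes also had medians close to 0. Complex I genes were 29 higher and 19 lower of 48 (median 0.03), and NDUFA9 alone had p under 0.05, with a difference of 0.58, which was 0.38 without the 2 low-mapping samples (limma p = 0.0562, exact p = 0.0556). In complexes II to V, 36 of 65 were higher (median 0.04), with p under 0.05 in ATP5A1 alone. With median-of-ratios scaling these medians were -0.06 and -0.04. Proteasome genes were 26 higher and 23 lower of 49. PSMG1, a chaperone of proteasome assembly, measured 4.66 to 8.58 FPKM in spring and 8.18 to 10.7 in summer (0.46, SE 0.19, limma p = 0.0331, exact p = 0.00433), and PSMB5, a catalytic subunit, 26.7 to 68.9 in spring and 18.1 to 41.8 in summer (-0.66, limma p = 0.0404, exact p = 0.0433), so the assembly factor and the subunit differed in opposite directions. PSMB5 without the low-mapping samples was at -0.50 (limma p = 0.107, exact p = 0.151).

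Metabolic genes with a low p were few. Glycolysis and citric acid cycle genes were 31 higher and 26 lower of 57, with p under 0.05 in FH and PDK3. PDK3, a kinase that switches off pyruvate dehydrogenase, measured 0.471 to 0.767 FPKM in spring and 0.826 to 2.33 in summer, without overlap (0.41, limma p = 0.034, exact p = 0.00216). Of 66 fatty acid and lipid droplet genes 39 were higher, with CIDEC and HADHA higher and PLIN5 lower at p under 0.05. All 3 were at or below 1.14 FPKM in every sample, and PLIN5 did not keep p under 0.05 without the 2 low-mapping samples. Steroid and cholesterol genes were 22 higher and 29 lower of 51 with p under 0.05 in none.

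The remaining lists gave from 0 to 3 members with p under 0.05. Autophagy and mitophagy genes had BECN1 (0.41, limma p = 0.0411, exact p = 0.00649) and OPTN (0.47, limma p = 0.0477, exact p = 0.0563) higher and GABARAP lower. BECN1 without the low-mapping samples was 0.20 (limma p = 0.0834, exact p = 0.0238) and OPTN 0.29 (limma p = 0.154, exact p = 0.206). Histone modifiers (77 genes), Hippo signaling (32), apoptosis regulators (34), RAB small GTPases (48), pluripotency and Wnt genes (37), and MAP kinases with their phosphatases (47) had none. Solute carriers had 1 of 161, the iron and metal transporter SLC11A2 (0.13, SE 0.06, limma p = 0.0434, exact p = 0.0325), which was at or below 0.36 FPKM in every sample and did not keep p under 0.05 without the 2 low-mapping samples. Zinc finger genes were 84 higher and 68 lower of 152, with p under 0.05 in 2 of the higher and 1 of the lower.

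**Figure D4:**
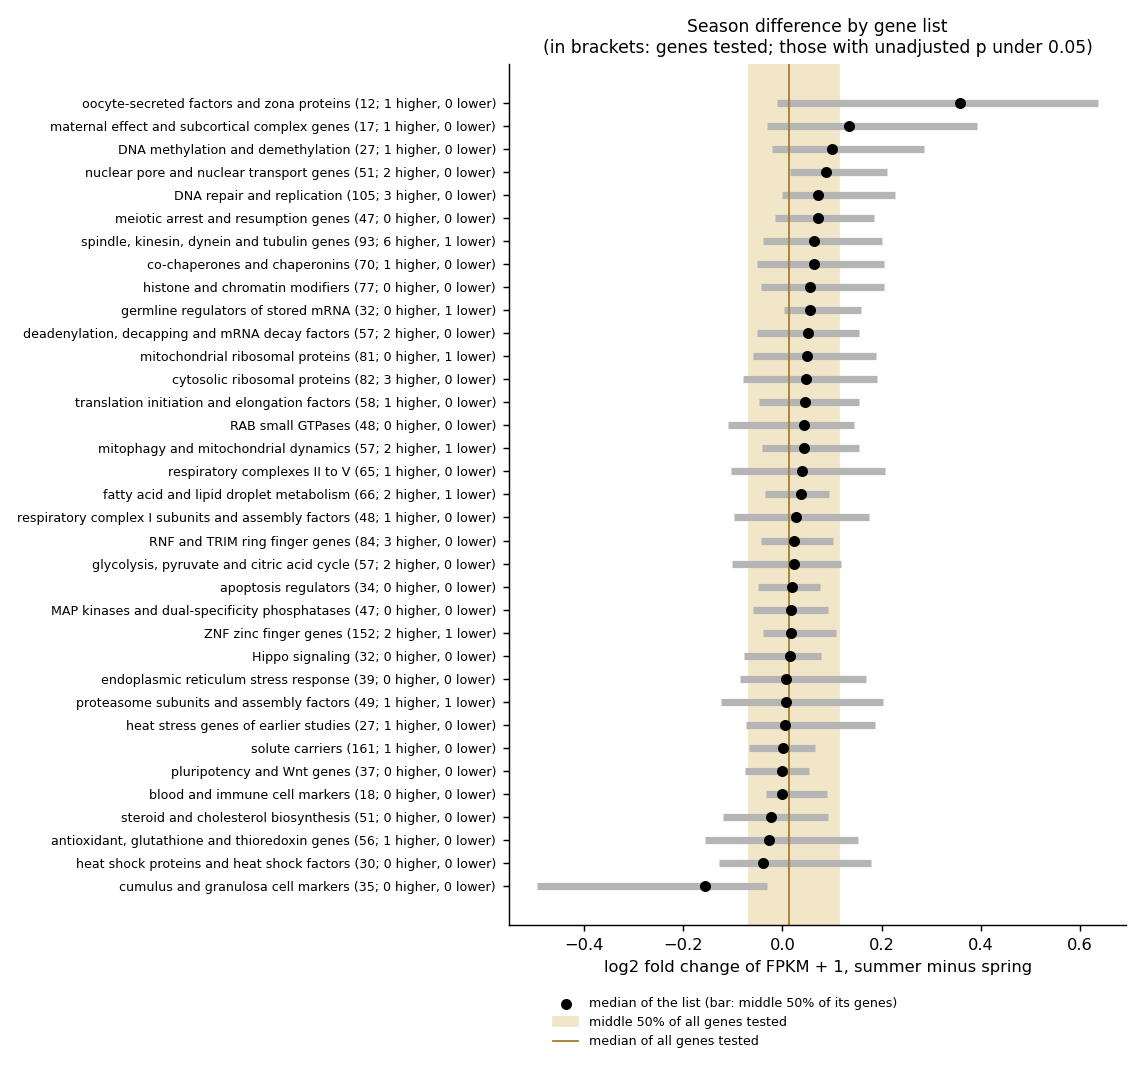
Median log2 difference in FPKM + 1, summer minus spring, of each of the 35 gene lists (points), with the middle 50% of its genes (grey bars), beside the median (line) and the middle 50% (band) of all 9309 genes tested. Oocyte-secreted factors and zona proteins lay highest at 0.36 and cumulus and granulosa markers lowest at -0.16, and the numbers in brackets count the genes tested and those with an unadjusted p under 0.05.

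Heat shock genes were divided between the seasons. Of 30 heat shock proteins and factors 13 were higher and 17 lower in summer, none had p under 0.05, and the median was -0.04. HSPA1A, the main heat-inducible HSP70, measured 5.98 to 93.5 FPKM in spring (median 21.9) and 4.92 to 53.4 in summer (median 15.2), a difference of -0.37 (limma p = 0.613, exact p = 0.662). Without the 2 low-mapping samples the sign of HSPA1A turned, to 0.35 (limma p = 0.617, exact p = 0.635). HSPE1, a mitochondrial chaperonin cofactor and the most abundant member, differed by -0.08, with a 95% interval from -0.68 to 0.51. HSPA1L, a relative of HSPA1A with the lowest p of the list, measured 0.01 to 0.931 FPKM in spring and 0.622 to 2.23 in summer (0.41, limma p = 0.0791, exact p = 0.0758). Its difference was 0.15 without those samples (limma p = 0.306, exact p = 0.278).

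HSP90AA1, the inducible cytosolic HSP90, depended on the low-mapping samples. It measured 31.9 to 289 FPKM in spring (median 45.2) and 58.4 to 375 in summer (median 77.9), and the difference over 12 samples was 0.73 (limma p = 0.217, exact p = 0.292). The highest value of spring was in replicate 6. Without both low-mapping samples spring ran from 31.9 to 55.5 FPKM and summer from 58.4 to 118, without overlap, and the difference was 0.80 (limma p = 0.00646, exact p = 0.00794). Its constitutive relative HSP90AB1 was then 0.69 (limma p = 0.00425, exact p = 0.00794). The median of the list moved from -0.04 to 0.11 with them left out.

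A list of 27 genes that earlier work had linked to heat stress in oocytes was likewise divided, with 15 higher, 12 lower and a median of 0.01, and PRDX1 alone had p under 0.05. GAPDH, a glycolytic enzyme, measured 56.4 to 155.7 FPKM in spring (median 107) and 27.8 to 163.6 in summer (median 66.3), a difference of -0.67 (limma p = 0.115, exact p = 0.145). With both low-mapping samples left out GAPDH was at -0.41 (limma p = 0.311, exact p = 0.357). SOD1, the cytosolic superoxide dismutase, differed by -0.15, with an interval from -0.72 to 0.41. The interval of CYCS, the electron carrier whose release starts apoptosis, ran from -0.56 to 0.70. NDUFC2 and POU5F1, a pluripotency factor, had differences of 0.01 and -0.03. Of 70 co-chaperones 46 were higher, with p under 0.05 in DNAJC9 alone, and of 39 genes of the endoplasmic reticulum stress response 22 were higher, with p under 0.05 in none. Antioxidant genes were 22 higher and 34 lower of 56, and PRDX1 was again the only member with p under 0.05.

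How much stayed the same can be stated from the intervals. A gene was counted as held within 2-fold where the whole 95% interval of its log2 difference lay between -1 and 1, and this was read only for the 996 genes with a mean of at least 10 FPKM. Of these 532 were held, or 53.4%, and for the others the interval was too wide to tell. Leaving out the 2 low-mapping samples raised the share to 76.7% (720 of 939 genes).

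Genes with a mean of 100 FPKM or more numbered 114, or 1.225% of the genes, and carried 56.6% of the total signal. Of these 72 were held, and 2 had an unadjusted p under 0.05, FTH1 and BCAR4. Between 10 and 100 FPKM, 460 of 882 genes were held and 26 had p under 0.05, or 2.95%. Between 1 and 10 FPKM 44 of 2700 genes, or 1.63%, had p under 0.05, and below 1 FPKM 62 of 5613, or 1.11%. The group below 1 FPKM held 60.3% of the genes and 1.91% of the signal, and a difference there is compressed by the pseudocount of 1.

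The most abundant genes were at the same order of level in both seasons. FAU, a ubiquitin-like fusion of a ribosomal protein and the gene with the highest mean, measured 2340 to 13630 FPKM in spring (median 7244) and 3820 to 10200 in summer (median 7649), and its interval ran from -0.64 to 0.85. UBB, a ubiquitin gene, varied more, from 1358 to 9108 FPKM in spring and from 723.6 to 8691 in summer, with an interval from -1.42 to 1.03 that does not limit the difference to 2-fold. The actin-sequestering thymosin genes TMSB4 and TMSB4X differed by 0.06 and 0.05. PTTG1, the securin that holds sister chromatids together until anaphase, measured 473 to 927 FPKM in spring and 440.3 to 1206 in summer. Its interval from -0.17 to 0.93 lay within 2-fold. The lowest PTTG1 value of each season was in a low-mapping sample. Without both, spring ran from 638.5 to 927.3 FPKM and summer from 941.1 to 1206, without overlap. The difference of PTTG1 was then 0.48 (limma p = 0.00314, exact p = 0.00794).

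Among these genes ID3, an inhibitor of basic helix-loop-helix transcription factors, and GSTM3, a glutathione transferase, had the widest spread besides UBB. GSTM3 measured 242.2 to 1655 FPKM in spring (median 1425) and 581.8 to 2456 in summer (median 2068), with the lowest value of each season in a low-mapping sample. Over 12 samples its difference was 0.60 (limma p = 0.23, exact p = 0.381), and without those samples it was 0.46 (limma p = 0.00317, exact p = 0.0159).

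The narrowest intervals above 100 FPKM belonged to TOMM6 (-0.24 to 0.49), a subunit of the mitochondrial import pore, RPL18 (-0.31 to 0.49), TMSB4X (-0.38 to 0.47), RPS6 (-0.52 to 0.33) and the splicing factor gene SNRNP25 (-0.41 to 0.46). RPL18 ran from 80.9 to 121 FPKM in spring and from 95.3 to 125 in summer, with medians of 108 and 107. RPS6, the ribosomal protein phosphorylated by S6 kinase, had medians of 512 and 515 FPKM. In all 5 the ranges of the seasons lay over each other.

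By function the held share was highest in proteasome genes (12 of 15), respiratory complexes II to V (27 of 34) and cytosolic ribosomal proteins (57 of 74). It was lowest in DNA methylation genes (0 of 4), ring finger genes (0 of 7) and oocyte-secreted factors and zona proteins (1 of 7). A gene that is not held may differ or may only be measured poorly, and the difference between lists was not tested.

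**Figure D5:**
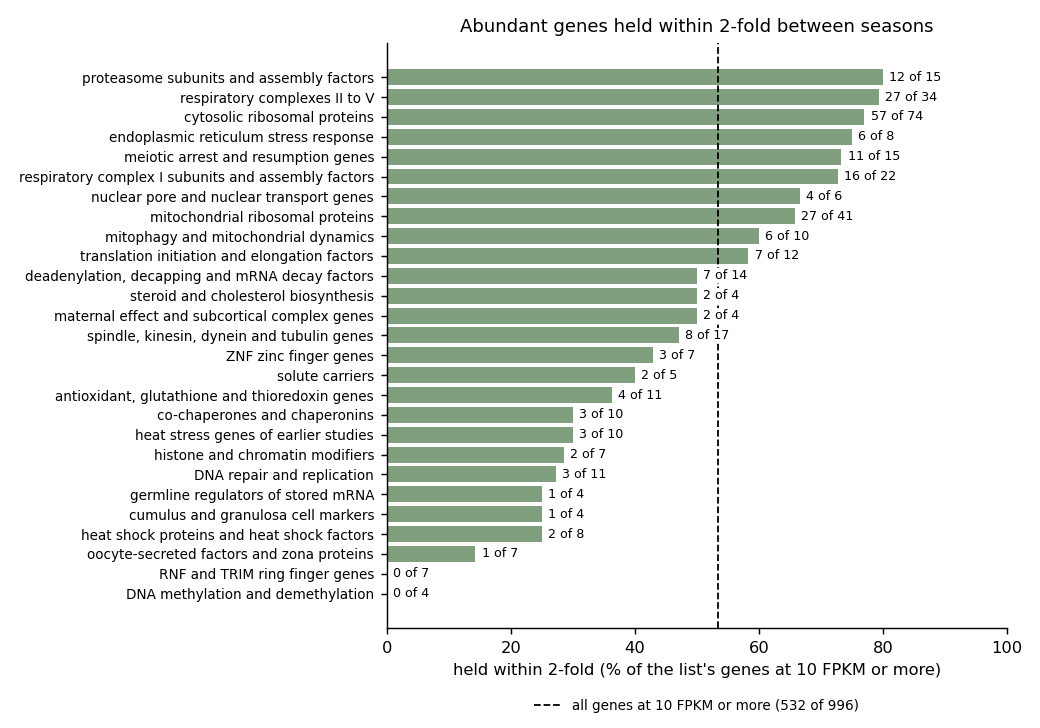
For each list with at least 4 genes at 10 FPKM or more, the bar gives the share of those genes whose 95% interval of the seasonal difference lay within 2-fold, with the counts at its end. The dashed line is the share of all such genes, 532 of 996, and proteasome, respiratory and cytosolic ribosomal genes lay above it.

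The spread between samples was wider in spring than in summer. Over 3696 genes with a mean of at least 1 FPKM, the median standard deviation of log2 values was 0.581 in spring and 0.473 in summer, and 66.8% of the genes had the larger one in spring. Without the 2 low-mapping samples the medians were 0.403 and 0.289, and 73.7% of genes had the larger spread in spring. The median correlation between samples was 0.8815 within spring, 0.941 within summer and 0.906 between the seasons. Depth was higher in some summer samples, as given above, and its part in this was not tested.

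Genes with a low p at GV were no more often of the same sign after maturation than genes in general. Of the 9309 genes 4732, or 50.8%, differed in the same direction at both stages, and of the 134 genes with p under 0.05 at GV the count was 68, or 50.7%. DRAP1 was the only one of these that also had p under 0.05 in the same direction at MII, at -0.96 (limma p = 0.0388, exact p = 0.0563). At MII 201 of the same genes, or 2.16%, had an unadjusted p under 0.05. The difference between the stages itself had an unadjusted p under 0.05 in 167 genes, or 1.79%, and 0 after adjustment.

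Of the 101 genes higher at GV 48, or 47.5%, were also higher in summer at MII, against 41.8% of all genes. Among the genes described above, some with a low p for the stage difference lay at or below 0 at MII. There ZP2 differed by -0.24, HILPDA by -0.04, NLRP9 by -0.01 and TMEM208 by -0.03. DNTTIP2 was at -0.52, MPHOSPH10 at -0.36, DNAJC9 at -0.37 and RNF148 at -0.29. For each of these 8 genes the stage difference had an unadjusted p under 0.05 (for ZP2 it was 1.21 on the log2 scale), and the adjusted p of limma was 0.9997. These 8 genes were also picked for a low p of the stage difference and a value at or below 0 at MII, so that p follows from the choice. Because they were chosen for their difference at GV, a smaller value at MII is partly given as well. Other genes higher at GV were above 0 at MII, among them KPNA2 (0.45), ADH5 (0.11), TMBIM6 (0.09), BCNT2 (0.07), RPL7L1 (0.06) and ATP5A1 (0.06), while PRDX1 was at -0.20. In total 43 of the 101 higher genes and 10 of the 33 lower genes had an unadjusted p under 0.05 for the stage difference.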

How the data were processed

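GV and MII oocyte pools were lysed, and their mRNA was captured and amplified by the Smart-seq2 v4 kit, made into libraries with Nextera XT and sequenced on a NextSeq 500 with paired 100 bp reads, according to the study's methods. The authors trimmed the reads, aligned them with STAR 2.5.3a to the bovine assembly UMD3.1, as the labels name it, and deposited 1 table of FPKM values for the 24 samples. Read counts were not used here. The deposited FPKM values bottom out at 0.01 and sum to the same total in each sample, a scaling that the sources used here do not describe. Absolute depth can therefore not be read from these values. The study states an approximate read number per sample, which did not enter the relative depth. Relative depth was estimated from the spacing of low values. The step that assigned reads to genes, and how it treated genes with near-identical copies, is not given in the sources used here. 29 symbols are listed at more than 1 locus.

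Groups were taken from the labels. Values were analysed as log2(FPKM + 1) with limma 3.58.1 in R 4.3.3 (trend in the variance, only the 12 GV samples in the fit), after keeping genes over 0.1 FPKM in at least 1 of the 12. The study used Partek Flow, which was not used here. Calls followed the thresholds of the study, 0.05 for the unadjusted p and 2 for the fold, with Benjamini-Hochberg adjustment over all 9309 genes beside them. A fold on this scale understates the change of low genes. Two-sided exact permutation tests were run for single genes. The difference between stages was fitted over all 24 samples. The fit was tested on simulated data. Python 3.11.15, numpy 2.4.6 and pandas 2.3.3 were used for the summaries, and matplotlib 3.10.9 for the figures. Gene lists are described by counts and medians only, since the genes, lists and rules were chosen with earlier results of these data known.

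Named genes were the called genes, the 10 higher and 10 lower with the smallest p and a mean of at least 1 FPKM, the 10 with the largest differences among those whose groups did not overlap, the member of each list with the smallest p and that with the highest level, the 10 most abundant genes, the listed heat stress genes, and the 5 genes over 100 FPKM with the narrowest intervals. Other genes named in the text, such as BCAR4, members of lists with p under 0.05 and those given without the 2 low-mapping samples, were chosen after their values were seen. Alternatives covered the pseudocount, the filter, scaling, the samples in the fit, a covariate for detected genes, the replicate block and each sample left out. The fit that joined median-of-ratios scaling with both low-mapping samples left out was added after seeing the data. No sequence is shown, since no genome of the files' build was used.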

Additional observations from a re-analysis of the deposited data

Results flagged for a closer look

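In 39 of 232 groups of 6 samples, formed by 116 named genes in the 2 seasons, the highest or the lowest sample stood apart from the others by Dixon's criterion, which chance alone meets in about 1 group in 20. No explanation was tested.

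Summer replicate 2, one of the low-mapping samples, stood apart as the highest in 12 groups and as the lowest in 7. Its high values included the growth factor GDF9 (379 FPKM), the G protein regulator RGS2 (2084), the proteasome subunit PSMA7 (165.6) and the ER protein TMBIM6 (12.15). Among mitochondrial and repair genes it was highest for ATP5B (26.4 FPKM), NDUFA9 (4.10) and APEX1 (33.85). It was also highest for KRT18 (34.4 FPKM), CAT (1.70), RAB39B (0.818), BCL2L1 (0.553) and TAOK1 (0.272). It was lowest for abundant oocyte transcripts, with GSTM3 at 581.8 FPKM, PTTG1 at 440.3, PRDX2 at 259.6 and ID3 at 165.8, and for RAB11A (27.8 FPKM), GNG5 (6.46) and SMDT1 (0.540).

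Spring replicate 6, the other low-mapping sample, stood apart as the highest in 8 groups and as the lowest in 2. It held the top spring values of EIF1 (624 FPKM), the epithelial keratin KRT18 (392.4), HSP90AA1 (288.9), GDF9 (261) and YWHAH (128.6). Lower on the scale it was highest for DNAJB11 (14.8 FPKM), STAT3 (3.94) and DNMT1 (2.91). It was lowest for GSTM3 (242.2 FPKM) and RAB11A (14.2).

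The other 10 groups were spread over 5 samples. Spring replicate 1 was highest for SNRNP25 (386.2 FPKM) and the complex III subunit UQCRQ (499.4), and spring replicate 3 for the gap junction gene GJA1 (15.6) and for SMDT1 (3.30). Spring replicate 4 was at 0.01 for the MAPRE2 entry on chromosome 2, where summer replicate 3 was highest with 56.1 FPKM. Summer replicate 3 was also highest for GABARAP (30.8 FPKM) and lowest for HSPA14 (0.730). Summer replicate 4 was highest for OOSP1 (468.1 FPKM) and lowest for DNAJC9 (3.545).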

How the results depend on the processing

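Against 3 genes called, the count was 39 with a pseudocount of 0.1, 110 with none, 5 with quantile normalization, 6 with median-of-ratios scaling, 14 with all 4 groups in the fit, 8 with detected genes as a covariate, 54 with the ratio of group means as the fold, 0 with adjusted p, and 3 to 13 with each sample left out (13 without spring replicate 6). Against 134 genes with an unadjusted p under 0.05, it was 234 with no filter, 63 with a mean of at least 1 FPKM, 368 with all 4 groups, 337 without both low-mapping samples, 328 when median-of-ratios scaling was added to that, and 79 to 279 with each sample left out (79 when the one left out was summer replicate 6, 84 for summer replicate 4 and 279 for spring replicate 6). Against 17 genes without overlap, it was 8 with a mean of at least 1 FPKM, 79 without both low-mapping samples, 81 with median-of-ratios scaling as well, and 19 to 65 with each sample left out. The count of genes over 10 FPKM held within 2-fold stayed within 1.5 times of 532 in all alternatives run, between 418 and 720. The share of low-p genes that were higher in summer was 75.4%, but 44.8% with median-of-ratios scaling, 50.8% with all 4 groups, 64.2% with the covariate, 51.2% without both samples after that scaling, and 43.7% without spring replicate 1. The cause was not tested. No named gene with p under 0.05 changed sign in the alternatives run, and 14 of 36 kept p under 0.05 in each of them: ATP5A1, DNAJC9, DRAP1, GABARAP, HILPDA, MPHOSPH10, NLRP9, PAIP2, RNF148, RPL7L1, SMDT1, TMBIM6, TMEM208 and ZP2. CIDEC kept it in all that were run for it, the filter at a mean of 1 FPKM excepted. With at least 1 single sample left out, 14 of the 36 lost it, among them FTH1, GNG5, KPNA2, MRPL11, NDUFA9, PDK3, PRDX1 and PSMG1. The median of the heat shock list was 0.11 without both samples. Spring and summer samples of the same replicate number deviated from their group means with correlations from -0.341 to 0.461, and none correlated best with its own number. Such correlations between small pools cannot tell whether a number stands for the same animal, so no pairing was assumed. With the replicate block 5 genes were called, 101 had p under 0.05 and 459 were held. Depth, which is lowest in spring replicate 6, limits what can be read for genes below 1 FPKM.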

Other observations

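The largest fitted differences between the seasons were mostly set by 1 or 2 spring samples, and these genes were singled out after their values were seen. Of 25 genes with a fitted fold over 2, 6 were higher and 19 lower in summer, and 3 had an unadjusted p under 0.05. Of the 19 lower genes 10 had their highest value in spring replicate 6 and 7 in spring replicate 3. Over all genes tested, of either direction, these samples were highest in 27.3% and 8.64%. The immediate early gene FOS measured 76.5 FPKM in spring replicate 6 and 50.6 in spring replicate 3, against at most 0.725 in summer (log2 difference -1.91, limma p = 0.0901, exact p = 0.212). The histone variant gene H2AFJ reached 222 FPKM in spring (-1.82, limma p = 0.0561, exact p = 0.0779).

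Other genes of this set were highest in spring replicate 3. RARRES2, a chemoattractant precursor, measured 113 FPKM there (-1.62, limma p = 0.0925, exact p = 0.0281), the proteoglycan gene SRGN 127, the intermediate filament gene VIM 75.7 and the inhibin subunit gene INHA 37.2. This sample also had the second highest sum of cumulus and granulosa markers, 283 FPKM. Their part in the seasonal difference was not tested. Of the 25 genes 9 entries belonged to symbols listed at more than 1 locus, among them MAPRE2, ATRAID, CUEDC2, GSR, ACTR3, DENR and RBX1.

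Leaving out the 2 low-mapping samples brought further groups of low p, and the lists given here were picked after their values were seen. Of 105 DNA repair genes 10 then had an unadjusted p under 0.05, all higher in summer. Among all genes with such a p in that setting 74.2% were higher, and 51.2% once median-of-ratios scaling was added. In complex I NDUFB10, NDUFS3 and NDUFV2 were lower with p under 0.05 and 0 were higher. Over all genes the share with p under 0.05 was 3.62%.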
